A study of Mus musculus with 6 samples.

Results

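The Schlafen family was analysed in mouse embryonic fibroblasts (MEFs) depleted of YME1L, an ATP-dependent protease of the mitochondrial inner membrane. The members were taken by name: *Slfn1*, *Slfn2*, *Slfn3*, *Slfn4*, *Slfn5*, *Slfn8* and *Slfn9*, each found as 1 locus, which makes 7 of the 51499 loci of the count table. WT MEFs received a scrambled siRNA (Scr) or a *Yme1l* siRNA and were collected after 72 h, with 3 independent cultures per group. All 6 cultures came from a clone that carries loxP sites in *Yme1l* and is called wild type. The study's methods state that this line was made with SV40 large T antigen, whereas the labels name a 3T3 immortalization, so the cells model an established line rather than a tissue. The siRNA lowers *Yme1l* in the whole culture and does not remove it.

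Schlafen proteins take part in growth arrest of lymphocytes, in myeloid cell development and in restriction of viruses, and many of them are induced by type I interferon. Mouse Schlafen proteins fall into a short group (*Slfn1*, *Slfn2*), an intermediate group (*Slfn3*, *Slfn4*) and a long group (*Slfn5*, *Slfn8*, *Slfn9*) whose members carry an additional helicase-like domain. Several can bind or cleave tRNAs, and long members are known for acting on stalled replication and on translation during viral infection. In fibroblasts, type I interferon signals through JAK kinases to a transcription factor complex that holds IRF9 and binds the interferon-stimulated response element (ISRE) in the promoters of interferon-stimulated genes (ISGs).

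All members lie in a cluster on chromosome 11 (mm10). The long members and the pseudogene *Slfn10-ps* are near the left end, with *Slfn5* at chr11:82951349-82964840 on the plus strand, *Slfn9* at chr11:82978390-82991830 and *Slfn8* at chr11:83002158-83020810 on the minus strand. *Slfn2* (chr11:83065112-83070678) and *Slfn1* (chr11:83116849-83122670) follow on the plus strand. The intermediate members *Slfn4* (chr11:83175186-83190216) and *Slfn3* (chr11:83191330-83215154) come last, also on the plus strand. RefSeq promoter sequences (GRCm38.p6, 250 bases before to 50 bases after the transcription start) matched all 7 members, and 4 of them are shown because they belong to the 3 most abundant members and to the remaining long member. The capitals mark the core of the ISRE, GAAANNGAAA or, on the other strand, TTTCNNTTTC.
*Slfn9* promoter, chr11:82991781-82992080, minus strand: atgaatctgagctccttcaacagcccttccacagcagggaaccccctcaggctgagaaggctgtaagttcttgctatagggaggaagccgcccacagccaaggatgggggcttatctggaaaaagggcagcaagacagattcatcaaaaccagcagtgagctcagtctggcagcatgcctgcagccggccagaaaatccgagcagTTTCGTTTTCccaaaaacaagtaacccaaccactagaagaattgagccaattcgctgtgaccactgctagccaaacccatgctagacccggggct
*Slfn8* promoter, chr11:83020761-83021060, minus strand: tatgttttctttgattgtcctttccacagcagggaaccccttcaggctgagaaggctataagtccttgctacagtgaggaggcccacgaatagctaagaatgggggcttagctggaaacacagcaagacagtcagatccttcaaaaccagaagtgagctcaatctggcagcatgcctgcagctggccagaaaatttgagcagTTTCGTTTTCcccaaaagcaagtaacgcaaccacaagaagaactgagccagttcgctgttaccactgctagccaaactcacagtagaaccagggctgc
*Slfn5* promoter, chr11:82951852-82952151, plus strand: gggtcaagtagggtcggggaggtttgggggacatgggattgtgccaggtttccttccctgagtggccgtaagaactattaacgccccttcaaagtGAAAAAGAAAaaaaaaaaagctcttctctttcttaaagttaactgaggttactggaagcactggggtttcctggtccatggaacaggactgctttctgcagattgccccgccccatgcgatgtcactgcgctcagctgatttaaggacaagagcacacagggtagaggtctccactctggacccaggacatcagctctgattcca
*Slfn2* promoter, chr11:83064862-83065161, plus strand: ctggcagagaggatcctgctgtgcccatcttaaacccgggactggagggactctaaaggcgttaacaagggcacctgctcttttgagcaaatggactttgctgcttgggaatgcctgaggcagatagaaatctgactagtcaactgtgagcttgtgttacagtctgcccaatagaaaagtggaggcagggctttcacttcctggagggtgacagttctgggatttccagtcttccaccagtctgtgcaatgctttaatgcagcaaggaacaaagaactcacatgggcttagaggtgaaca
The ISRE core was found in the promoters of *Slfn5*, *Slfn8* and *Slfn9*, and these letters are not in the windows of *Slfn1*, *Slfn2*, *Slfn3* and *Slfn4*. Over both strands, 3.49% of 27025 mouse genes with such a promoter hold it. The promoters of *Slfn8* and *Slfn9* were 84.8% identical over 283 bases and held the same ISRE letters, with the first base 48 and 45 bases before the start. From another RefSeq start of *Slfn8*, the same match began 136 bases before the start. In *Slfn5* the match began 155 bases before the start, inside a run of adenines. The RefSeq start used for *Slfn5*, with its whole window, lies inside the span of the gene given above. Another motif, the gamma-activated site TTCNNNGAA, was in none of the 7 promoters and in 8.47% of all promoters.

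The promoters of the short and intermediate members were compared with each other, since they lie side by side and hold no exact match of the ISRE core. Inexact matches of the ISRE were not searched for. Their longest common word was ACTTCCTGG, given in capitals with 20 bases on each side.
*Slfn2*, chr11:83065037-83065085: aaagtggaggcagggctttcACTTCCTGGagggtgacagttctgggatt
*Slfn1*, chr11:83116726-83116774: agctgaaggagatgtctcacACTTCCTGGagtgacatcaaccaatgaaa
*Slfn4*, chr11:83175093-83175141: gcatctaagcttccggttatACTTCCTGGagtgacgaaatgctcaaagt
*Slfn3*, chr11:83191268-83191316: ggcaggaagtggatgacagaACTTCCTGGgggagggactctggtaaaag
This word begins between 74 and 42 bases before the start and is in 0.888% of all promoters, counting both strands. It was found by looking at these sequences, so its presence is a description.

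The libraries held between 37260605 and 45205207 counts, and levels are given as CPM, counts scaled to the size of each library with the TMM factors of edgeR. Of all loci, 14499 had enough counts for edgeR's quasi-likelihood test, with Benjamini-Hochberg adjustment over all of them and a threshold of 0.05. *Yme1l1*, the targeted gene, was at 171, 171 and 171 CPM in the Scr libraries and at 31.6, 23.4 and 45.0 CPM in the Yme1l siRNA libraries. All Yme1l siRNA libraries were therefore below the Scr libraries (log2 fold change −2.36, SE 0.20, adjusted p = 3.87e-05), as their labels state. Fibroblast markers were present, with summed levels of 33550 to 40740 CPM in Scr and 18040 to 22450 CPM in Yme1l siRNA, although *Thy1* had at most 1 count in a library and 7 of the 8 markers tested fell. Among 12 leukocyte markers, *Adgre1*, *Cd3e* and *Tyrobp* were at 0 in every library and *Ptprc* was at 0 in 5. Others were detected, with 53, 70 and 36 counts of *Lyz2* in Scr and 42, 72 and 23 in Yme1l siRNA. *Laptm5* had 3 to 7 counts and *Fcer1g* 0 to 4 counts over all libraries. The summed leukocyte level of 109.9 to 135.2 CPM in Scr and 184.4 to 223.0 CPM in Yme1l siRNA was almost entirely that of *Csf1r*, with 4559 to 9366 counts. In such bulk samples, fewer cells of a type and less RNA per cell cannot be told apart.

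The Schlafen family was higher after depletion of YME1L. Summed over the 7 members, the libraries held 92.0, 81.7 and 77.8 CPM with Scr and 317, 359.8 and 225 CPM with Yme1l siRNA, a 3.59-fold difference between means of 83.8 ± 7.37 and 300.7 ± 68.8 CPM (SD, n = 3). All Yme1l siRNA libraries were above all Scr libraries, and the exact permutation test gave its smallest possible value for 3 against 3 libraries (two-sided p = 0.1). In the test across loci, 5 of the 7 members (*Slfn2*, *Slfn3*, *Slfn4*, *Slfn8*, *Slfn9*) were called higher, beside 28.4% of the loci tested. None was called lower, beside 29.6% of the loci tested. With DESeq2 and with limma-voom, 5 members were likewise called higher and 0 lower. *Slfn1* and *Slfn5* had too few counts to be tested, and *Slfn3* and *Slfn4* had enough in all libraries of Yme1l siRNA but not of Scr, so that these passed the filter only through the group where they are high. With a filter that uses the mean over all libraries (at least 50 counts), *Slfn2*, *Slfn8* and *Slfn9* were tested and all 3 were called higher. Levels in the groups did not overlap for 4 of the 5 members tested, as for 31.9% of all loci tested in this direction. The median log2 fold change of the 5 members was 2.15, the value of *Slfn3*, also with *Slfn4* at its lower bound, beside 0.01 for all loci tested. With the filter that uses the mean, the median of the 3 members tested was 1.81.

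**Figure D1:**
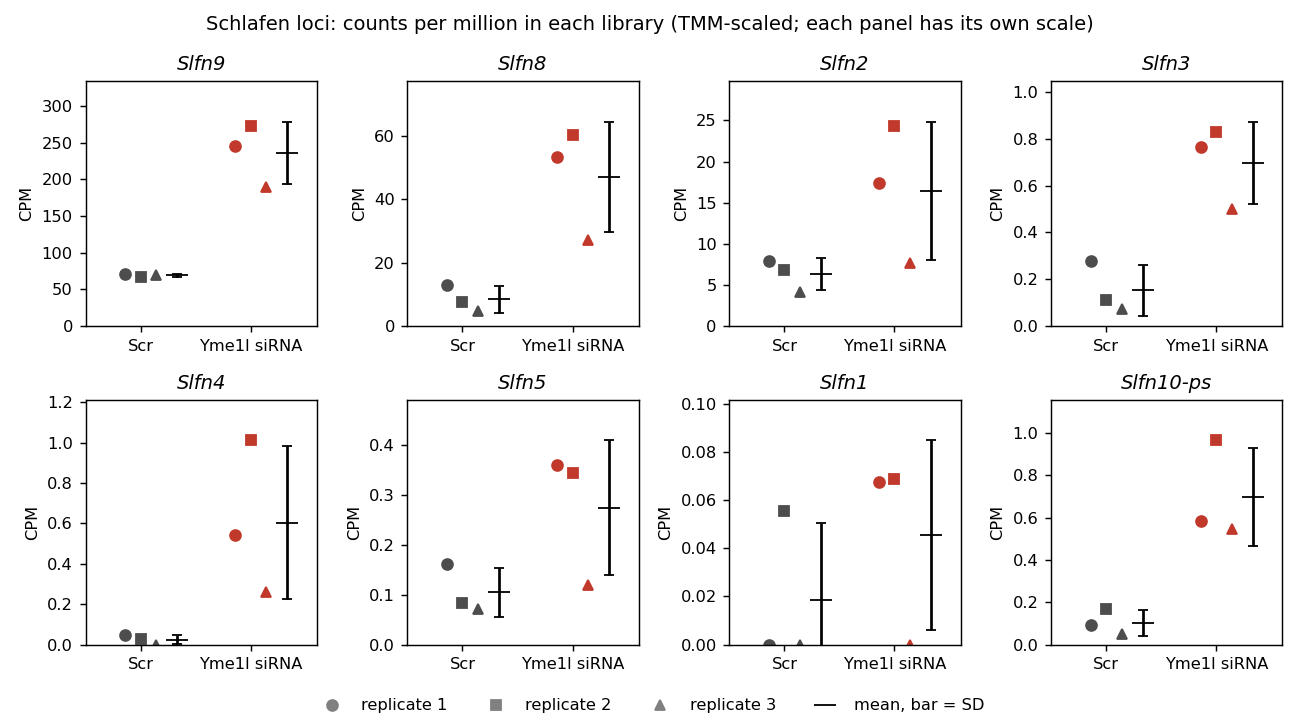
Levels of the 7 members and of *Slfn10-ps* in CPM (vertical axis, a scale of its own in each panel) in each Scr (grey) and Yme1l siRNA (red) library, with symbols for the replicates and the mean and SD beside them. *Slfn9*, *Slfn8*, *Slfn3*, *Slfn4* and *Slfn10-ps* separate the groups without overlap, whereas *Slfn2*, *Slfn5* and *Slfn1* do not.

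Among the long members, *Slfn9* was the most abundant. *Slfn8* and *Slfn9* are the long Schlafens closest to human SLFN11 and SLFN13, which act on replication forks and on tRNA. *Slfn9* was at 70.7, 67.0 and 68.9 CPM in Scr and at 244.8, 273 and 189.5 CPM in Yme1l siRNA. The Scr libraries lay within 1.05-fold of each other, the tightest control group of all members with counts in every library. The log2 fold change of *Slfn9* was 1.78 (SE 0.13, 3.42-fold, adjusted p = 1.72e-05). It stayed between 1.67 and 1.91 when each library was left out in turn.

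*Slfn8* was at 13.0, 7.57 and 4.60 CPM in Scr and at 53.3, 60.3 and 27.2 CPM in Yme1l siRNA. The lowest Yme1l siRNA library was above the highest Scr library, but the Scr libraries differed by 2.83-fold among themselves. Its log2 fold change was 2.48 (SE 0.39, 5.58-fold, adjusted p = 0.000807), with 2.18 to 2.95 over the sets with 1 library left out.

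*Slfn5*, which restrains proliferation and is known as an interferon-induced long member in fibroblasts and tumour cells, was hardly detected. It had 7, 3 and 3 counts in Scr and 16, 15 and 5 counts in Yme1l siRNA, that is 0.105 ± 0.0492 and 0.275 ± 0.136 CPM (SD, n = 3). The groups overlap through replicate 3 of Yme1l siRNA. Without a filter on low counts its log2 fold change was 1.34 (adjusted p = 0.0910), and without replicate 3 of Yme1l siRNA, the library through which the groups overlap, it was 1.70 (adjusted p = 0.0172). Without replicate 1, 2 or 3 of Scr the adjusted p was 0.0626, 0.167 and 0.184, and in the other sets it was not tested. In the sets with 1 library left out that tested it, *Slfn5* passed the filter only through the group where it is high. Its antisense neighbour *Slfn5os*, which overlaps exons of *Slfn5* on the other strand, had 0 counts in all libraries, and *Slfn5* shares 6.16% of its 100-base words with it.

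In the short group, *Slfn2* was the second most abundant member per length in Scr cells. SLFN2 keeps T cells and monocytes quiescent and protects tRNAs from cleavage in activated T cells. It was at 7.90, 6.82 and 4.17 CPM in Scr and at 17.3, 24.3 and 7.62 CPM in Yme1l siRNA. Replicate 3 of Yme1l siRNA was below replicate 1 of Scr, so the groups overlap. The fold change was 2.61 (log2 1.38, SE 0.39, adjusted p = 0.0150). The call was lost without replicate 3 of Scr (log2 fold change 1.15, adjusted p = 0.0544) and without replicate 2 of Yme1l siRNA (1.00, adjusted p = 0.0501), and the exact permutation test of its log2 CPM gave a two-sided p = 0.2.

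*Slfn1*, the founding member, arrests thymocyte growth when overexpressed. It had 0, 2 and 0 counts in Scr and 3, 3 and 0 counts in Yme1l siRNA. These values are at or under 3 counts, or 0.0745 CPM on average over the Scr libraries, in all libraries, and a difference was not detectable at this depth.

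The intermediate members were low in Scr cells and rose to less than 1.1 CPM. *Slfn3* is known from T cell quiescence and from differentiation of gut epithelium. It had 12, 4 and 3 counts in Scr and 34, 36 and 21 counts in Yme1l siRNA, with no overlap between groups, and its log2 fold change was 2.15 (SE 0.47, adjusted p = 0.00428). This value was 2.91 without replicate 1 of Scr and between 1.79 and 2.33 without each other library. *Slfn4* is a myeloid member induced by Toll-like receptor ligands and interferon. It had 2, 1 and 0 counts in Scr and 24, 44 and 11 counts in Yme1l siRNA. Since no Scr library exceeded 3 counts, its change is given as at least 8.12-fold higher, against 3 counts per Scr library (adjusted p = 0.00175). This bound was 5.38-fold without replicate 2 of Yme1l siRNA and 10.4-fold without replicate 3.

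Other loci with a Schlafen name were read in the same way. The pseudogene *Slfn10-ps* (chr11:83028130-83040042, minus strand), next to *Slfn8*, had 4, 6 and 2 counts in Scr and 26, 42 and 23 counts in Yme1l siRNA. The groups did not overlap (log2 fold change 2.78, SE 0.47, adjusted p = 0.00110), but like *Slfn3* and *Slfn4* it passed the filter only through the group where it is high. Its counts were 0.0688% to 0.248% of those of *Slfn9* in Scr and 0.239% to 0.354% in Yme1l siRNA. *Slfn14*, which encodes a ribosome-associated endoribonuclease of the red cell and platelet lineages, had 0 counts in Scr and at most 1 in Yme1l siRNA. *Slfnl1*, on chromosome 4, had at most 1 count in any library.

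Members are similar in sequence, and the handling of reads that match several places is not given in the sources used here. The longest annotated transcripts of *Slfn8* and *Slfn9* were 92.6% identical over 3496 bases, and those of *Slfn3* and *Slfn4* were 92.9% identical over 1406 bases. *Slfn2* matched *Slfn3* at 95.3% over 379 bases. Even so, words as long as a read were mostly particular to their gene. *Slfn9* shared 3.71% of its 100-base words with other genes, *Slfn8* shared 3.38% (mostly with *Slfn10-ps*) and *Slfn10-ps* 7.84% (mostly with *Slfn9*). *Slfn3* shared 2.92% (mostly with *Gm11427*), *Slfn4* 0.271%, *Slfn2* 0.128% and *Slfn1* none. The locus that holds *Gm11427* and *AI662270* had 60, 42 and 51 counts in Scr and 65, 81 and 59 in Yme1l siRNA, more than *Slfn3* in every library. Reads of the shared words could be split between these loci. The share was largest for *Slfn10-ps*, and the part of this in the values was not tested for any locus.

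Per length of merged exons, the order of members differed between groups. In Scr cells *Slfn9* (11.5 ± 0.305 CPM per kb) stood above *Slfn2* (3.78 ± 1.15) and *Slfn8* (2.05 ± 1.04), whose libraries overlapped. *Slfn3* followed at 0.0449 ± 0.0321 CPM per kb, apart from *Slfn8* but overlapping with *Slfn5*, and *Slfn5*, *Slfn1* and *Slfn4* were not separated from each other. After Yme1l siRNA *Slfn9* (39.5 ± 7.11 CPM per kb) again stood apart, and the level of *Slfn8* (11.5 ± 4.26) overlapped with that of *Slfn2* (9.88 ± 5.05). *Slfn3* (0.205 ± 0.0514) and *Slfn4* (0.153 ± 0.0958) overlapped, with *Slfn4* now above *Slfn5* in all libraries.

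The composition of the family was compared within each library, where the library size cancels. *Slfn9* took 76.8% to 88.5% of the family's counts in Scr and 75.9% to 84.2% in Yme1l siRNA. *Slfn8* took 5.91% to 14.1% and 12.1% to 16.8%. Counts of *Slfn8* per count of *Slfn2* were 1.65, 1.11 and 1.10 in Scr and 3.08, 2.48 and 3.57 in Yme1l siRNA, without overlap. The log2 ratio thus differed by 1.25, with an exact permutation p of 0.1, the smallest possible (0.3 adjusted over 3 pairs). The ratio of *Slfn8* to *Slfn9* differed by 0.77 on the log2 scale (p = 0.2 in the exact permutation test) and that of *Slfn9* to *Slfn2* by 0.48 (p = 0.4 in the same exact test), both with overlapping groups. With 3 against 3 libraries this test cannot go below 0.1, so that it cannot pass a threshold of 0.05.

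The members' levels also differed among the cultures of a group. Replicate 3 of Yme1l siRNA had the lowest level of its group for 7 of 7 members, which was the case for 45.8% of the 4123 loci called higher and for 38.5% of all loci tested. That library also had the highest remaining *Yme1l1* level of its group (45.0 CPM). Among the Scr libraries, replicate 3 was lowest for 5 of 7 members (*Slfn2*, *Slfn3*, *Slfn4*, *Slfn5*, *Slfn8*), beside 38.5% of the loci called higher and 39.3% of all loci tested. *Slfn9* was nearly level over the Scr libraries and lowest in replicate 2. The *Yme1l1* levels of the Scr libraries were within 1.01-fold of each other. The part of the remaining *Yme1l1* in the spread of the Schlafen levels was not tested.

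**Figure D2:**
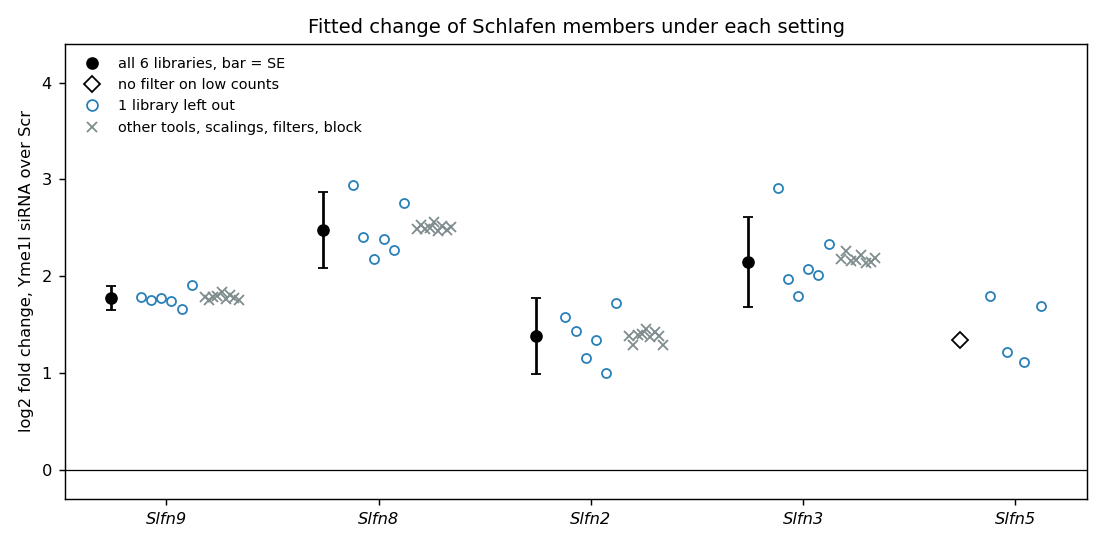
Fitted log2 fold change of Yme1l siRNA over Scr (vertical axis) for 5 members, with all 6 libraries and its SE (black), with 1 library left out (blue) and under the other tools, scalings, filters and the block (grey crosses). *Slfn9* stays between 1.67 and 1.91, *Slfn2* drops to 1.00 without replicate 2 of Yme1l siRNA, and *Slfn5* is shown without the filter on low counts and for the sets in which it could be tested.

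Genes of type I interferon signalling, the pathway known to induce Schlafen genes, were read from a list of 16. Of 15 tested, 8 rose and 3 fell, beside 28.4% higher and 29.6% lower over all loci tested, with a median log2 fold change of 0.47. Among the 8 is *Ifnb1*, which passed the filter only through the group where it is high. When each library was left out in turn, 8 to 9 rose and 1 to 2 fell. The smallest p-values were those of *Usp18*, *Irf9* and *Irf7*. *Usp18*, an interferon-induced inhibitor of the receptor, had 1084, 618 and 381 counts in Scr and 7112, 7388 and 3239 counts in Yme1l siRNA (log2 fold change 2.99, SE 0.40, adjusted p = 0.000334). *Irf7*, a transcription factor that amplifies interferon production, had 1162, 696 and 299 counts in Scr and 7178, 8258 and 2870 counts in Yme1l siRNA (log2 fold change 2.98, SE 0.50, adjusted p = 0.00114). In both genes replicate 3 was again the lowest library of each group. *Irf9*, the DNA-binding subunit of the interferon-activated complex, rose by 1.19 on the log2 scale (SE 0.18, adjusted p = 0.000677), with a locus that also holds *Rnf31*. Named after their values were seen, *Socs3*, a feedback inhibitor of cytokine receptors, fell by 0.48 on the log2 scale (adjusted p = 0.00167) and kept this call with each library left out. The receptor kinase genes *Jak1* (−0.20, adjusted p = 0.0389) and *Tyk2* (−0.27, adjusted p = 0.0385) each lost their call in 5 of the 6 sets with 1 library left out, with adjusted p up to 0.0997 and 0.0935, and also with library totals alone (0.144 and 0.120). *Ifnb1*, also named after its values were seen, encodes interferon beta and had 3, 1 and 0 counts in Scr and 37, 60 and 11 counts in Yme1l siRNA, at least 11.1-fold higher against 3 counts per Scr library (7.35-fold without replicate 2 of Yme1l siRNA and 14.9-fold without replicate 3).

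**Figure D3:**
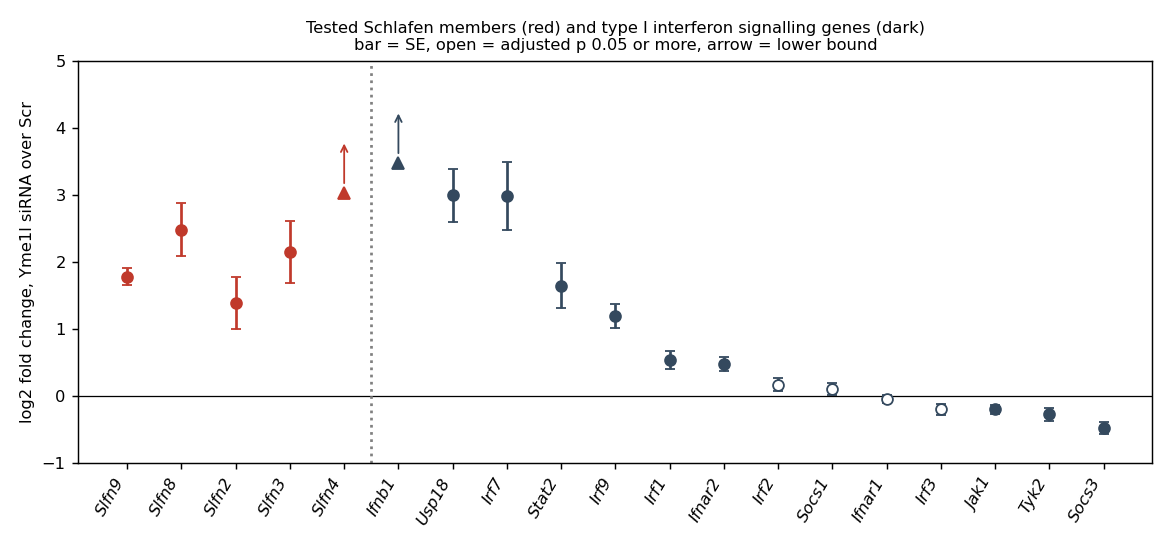
Log2 fold change of Yme1l siRNA over Scr (vertical axis) with its SE for the tested members (red) and tested genes of type I interferon signalling (dark), where open symbols have an adjusted p of 0.05 or more and arrows mark lower bounds. *Slfn8* (2.48) lies between *Irf7* (2.98) and *Stat2* (1.64).

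A list of 13 genes for tRNA cleavage, ribosome stress signalling and replication protein A, processes in which Schlafen proteins act, moved in both directions. Of 13 tested, 6 rose and 4 fell, beside 28.4% higher and 29.6% lower over all loci tested, and the median log2 fold change was 0.23. *Rpa2*, a subunit of replication protein A, rose by 0.86 on the log2 scale (SE 0.07, adjusted p = 2.98e-05). *Nsun2*, a tRNA methyltransferase whose marks protect tRNAs from cleavage, rose by 0.71 (SE 0.09, adjusted p = 0.000222), and *Elac2*, which trims tRNA 3′ ends, rose by 0.47 (SE 0.07, adjusted p = 0.000626). The 4 genes that fell were, named after their values were seen, *Ang* (−1.55 on the log2 scale, adjusted p = 0.000955, at a locus that also holds *Rnase4*), *Eif2ak4* (−0.65, adjusted p = 0.000858), *Rnh1* (−0.59, adjusted p = 0.000701) and *Rpa3* (−0.26, adjusted p = 0.0261). They encode a ribonuclease that cleaves tRNAs, a kinase that senses uncharged tRNAs, an inhibitor of ribonucleases and another subunit of replication protein A. *Rpa3* lost its call without replicate 2 of Scr and without replicate 1 or replicate 3 of Yme1l siRNA, with adjusted p = 0.0918, 0.0901 and 0.0526.

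The loci around the cluster were read to see how far the change extends along the chromosome. The Schlafen span was taken from the authors' coordinates, in which the row of *Slfn5* also covers *Unc45b*. Its left edge is therefore chr11:82910550, the start of *Unc45b*, and not the start of *Slfn5*. Within 250 kb of either edge of this span, and inside it, lay 35 loci that are no members, of which 19 were tested. Of these, 6 rose and 6 fell, close to the shares over all loci tested (28.4% higher and 29.6% lower), with a median log2 fold change of 0.22. Without replicate 2 of Scr, 3 rose. The nearest tested neighbour to the left of *Slfn5* was *Unc45b* (chr11:82910550-82943403), a myosin chaperone of muscle. *Unc45b* had 6, 4 and 11 counts in Scr and 41, 53 and 25 counts in Yme1l siRNA. It rose without overlap (log2 fold change 2.39, SE 0.42, adjusted p = 0.00143), the largest change among the 19 loci. Like *Slfn3* and *Slfn4*, it passed the filter only through the group where it is high. To the right, *AA465934* (chr11:83291699-83294632) rose by 1.11 on the log2 scale (SE 0.30, adjusted p = 0.0124), a call that was lost without replicate 2 of Scr (0.98, adjusted p = 0.0515). Further to the right, the chemokine gene *Ccl5* rose (log2 fold change 2.14, SE 0.35, adjusted p = 0.00101) and *Mmp28*, a matrix metalloproteinase gene, fell (−1.57, SE 0.07, adjusted p = 5.02e-06). These also were named after their values were seen.

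**Figure D4:**
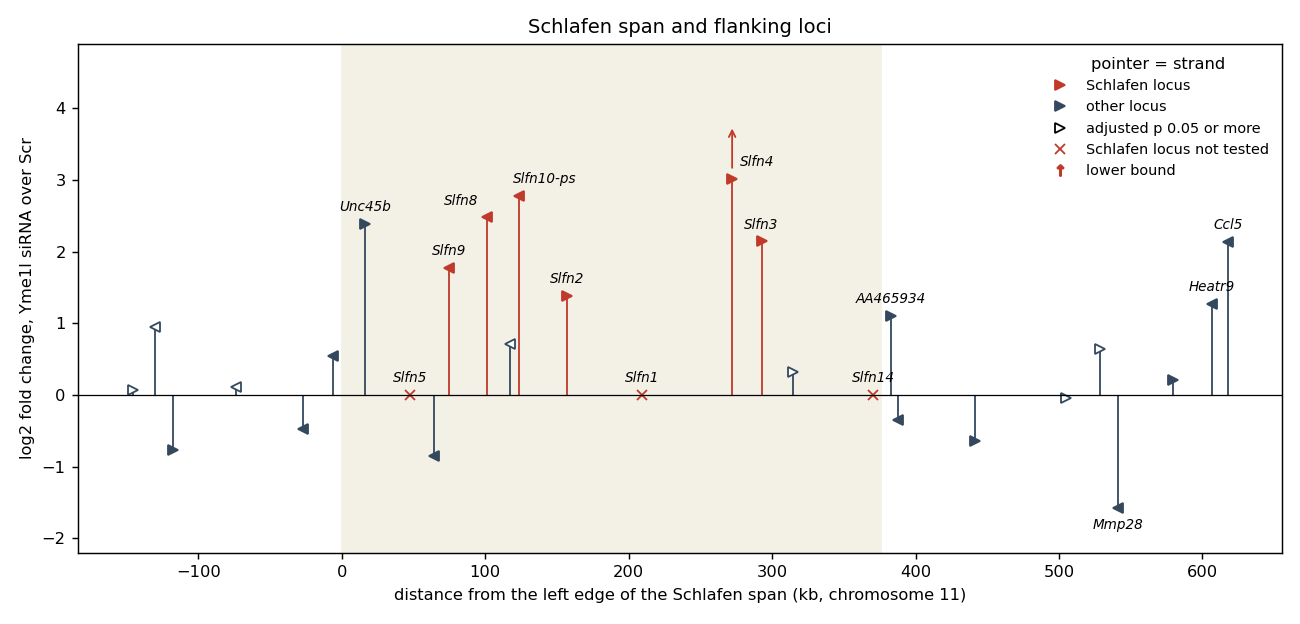
Log2 fold change of Yme1l siRNA over Scr (vertical axis) against the distance in kb from the left edge of the Schlafen span (horizontal axis, the span shaded), with Schlafen loci in red, other tested loci in dark, the pointer showing the strand and open symbols an adjusted p of 0.05 or more. The Schlafen loci tested all point upwards, with *Slfn4* at its lower bound, whereas the 19 other loci include 6 that rose and 6 that fell. The shaded span begins at the start of *Unc45b*, which the authors' row of *Slfn5* also covers.

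Loci with the most similar pattern were sought for each tested member among 11541 other loci whose mean log2 CPM was 1 or more, by Pearson's r of log2 CPM over the 6 libraries. The libraries form 2 groups, so that any locus that separates them reaches a high r, and these values are descriptions. *Slfn8* was closest to *Oas1b* (r = 0.999) and *Oasl2* (r = 0.998), which belong to the interferon-induced oligoadenylate synthetase family. *Slfn2* was closest to the immunoproteasome subunit gene *Psmb9* (r = 0.999) and to *Trim34a* (r = 0.998). *Slfn9* was closest to *Clptm1l* and *Psmd9* (both r = 0.9995), which rose by 0.51 and 0.61 on the log2 scale. *Slfn4* was closest to *Psmf1* and *Zfp36l2* (both r = 0.998), and *Slfn3* to *Gm15361* (r = 0.994). Among the members themselves, r ranged from 0.838 (*Slfn2* and *Slfn9*) to 0.992 (*Slfn3* and *Slfn8*).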

How the data were processed

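RNA-Seq libraries of WT MEFs transfected with Scr or Yme1l siRNA were analysed (3 cultures per group). According to the methods and the submitters' processing notes, poly(A) RNA was sequenced from both ends, mapped to mm10 (Ensembl annotation) with HISAT2 2.0.4, assembled with StringTie 1.3.3 and compared with Cuffdiff 2.2.1. The authors deposited raw read counts per locus, without normalization. The counting program and its handling of strand and of reads with several matches are not given in the sources used here. A second table of the authors holds FPKM values per group, with the libraries combined. Its fold changes, test statistics, p-values and q-values are the authors' own comparison and were not used.

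Counts were fitted in edgeR 4.0.16 (R 4.3.3; filterByExpr with a minimum of 10 counts and 15 in total, TMM factors, quasi-likelihood test, Benjamini-Hochberg adjustment over 14499 loci), at a biological coefficient of variation of 0.131. Library totals were 45205207, 37260605 and 41929579 (Scr) and 43630145, 42161756 and 41342446 (Yme1l siRNA). Genes at or under 3 counts in all Scr libraries received lower bounds. These set each Scr library at 3 counts and use the observed mean of Yme1l siRNA. They leave out the counting error and the spread of the Yme1l siRNA libraries. DESeq2 1.42.0, limma-voom 3.58.1, other scalings, filters, a stricter threshold, a replicate block and leaving out each library were alternatives. The fits across loci were tested on simulated data, where DESeq2 made more false calls than edgeR and limma-voom, so that the limit set for the alternative tools was relaxed after a first run. The exact permutation tests used scipy 1.17.1. Positions and lengths came from GENCODE M21, shared words from its transcripts, identities from BLAST 2.17.0 and promoters from RefSeq (GRCm38.p6).

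Named were all members, other Schlafen loci, the 3 smallest p-values of each list, the nearest and most changed flanking loci, the 2 loci most like each member and *Yme1l1*. Some genes that this rule or the lists hold are not reported here. The members and lists were chosen with earlier results of these data known. Cultures were independent according to the study.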

Additional observations from a re-analysis of the deposited data

How the results depend on the processing

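*Slfn3*, *Slfn4*, *Slfn8* and *Slfn9* kept their direction and their call under every alternative in which they were tested, with highest adjusted p-values of 0.0221, 0.00924, 0.00600 and 0.000293. *Slfn2* kept its direction and lost its call in 3 of its 15 alternatives: at a threshold of 0.01 (adjusted p = 0.0150), without replicate 3 of Scr and without replicate 2 of Yme1l siRNA. With a mean of at least 50 counts required, 3 members were called higher, since *Slfn3* and *Slfn4* were then not tested. Without any filter on low counts the median log2 fold change of the members became 1.77, since *Slfn1* and *Slfn5* then entered it. Leaving out each library gave 4 to 6 members higher, a median of 1.78 to 2.36, 8 to 9 interferon signalling genes higher and 1 to 2 lower, 3 to 6 flanking loci higher and 4 to 6 lower. The 6 members higher came without replicate 3 of Yme1l siRNA and include *Slfn5*, which passed the filter only through the group where it is high. The 3 flanking loci higher came without replicate 2 of Scr, and the cause was not tested. Deviations of same-numbered libraries had correlations of 0.0409, 0.116 and 0.192, which do not settle whether the replicate numbers pair the cultures. With a replicate block, 5 members were called higher and none lower (edgeR), and over all loci 4227 were higher and 4460 lower in place of 4123 and 4288. The adjusted p in edgeR with this block was 0.000672 for *Slfn2*, 0.00315 for *Slfn3* and 0.000576 for *Slfn4*. For *Slfn8* and *Slfn9* it was 3.14e-05 and 2.45e-05. *Slfn1*, *Slfn14* and *Slfnl1* are limited by depth, with at most 3 counts in any library. Per length of the longest transcript, *Slfn9* was at 11.9 CPM per kb in Scr.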

Other observations

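The authors' FPKM values per group, which combine the 3 libraries, were read beside the counts. For *Slfn9* they were 13.8 in Scr and 46.6 in Yme1l siRNA, for *Slfn8* 2.37 and 13.2, and for *Slfn2* 4.12 and 10.7. The intermediate members were at 0.0885 and 0.381 (*Slfn3*) and at 0.00967 and 0.166 (*Slfn4*). In the row named *Slfn5*, whose coordinates in the authors' table also span *Unc45b* and *Slfn5os*, the values were 0.170 FPKM in Scr and 0.0630 FPKM in Yme1l siRNA, the opposite order to its counts, which were lower in Scr than in Yme1l siRNA in sum (7, 3 and 3 against 16, 15 and 5). How far the other genes of that span enter this value is not given in the sources used here. The FPKM values carry no spread between libraries, and the cause of the difference was not tested.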
